A study of Mus musculus with 4 samples.

Results

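The genes described here are 9 genes of thymocyte positioning and exit, picked by symbol out of the 23285 genes in the deposited table. They comprise 6 receptor genes (Cxcr4, Ccr9, Ccr7, Ccr4, Ccr8 and S1pr1) and 3 transcription factor genes (Klf2, Foxo1 and Foxo3). All 9 symbols were found in the per-library table. RNA was sequenced from mouse thymocytes sorted at the DN3 stage, an early stage lacking CD4 and CD8, 16 weeks after fetal liver cells had been transferred into irradiated recipients. The donors carried either Gata3(g/g), labelled a hypomorph (an allele of reduced function), or the wild type (WT) genotype, with 2 libraries of each genotype. All samples are labelled C57BL/6, and both genotypes share the transfer and the irradiated host. The sources used here give neither the age of the recipients, nor the number of animals in a sample, nor the way donor cells were told from host cells. The p-values therefore concern the spread among these libraries, which may be technical in part.

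Chemokine receptors and the sphingosine 1-phosphate receptor are G protein-coupled receptors that steer migrating thymocytes along ligand gradients. CXCR4 binds CXCL12 and acts at the beta-selection checkpoint beside the pre-T cell receptor, while CCR9 binds CCL25 made by thymic epithelium. CCR7, CCR4 and CCR8 are better known from positively selected thymocytes that move to the medulla, and S1PR1 from mature thymocytes that leave the thymus. FOXO factors leave the nucleus when the PI3K and AKT kinases are active. FOXO1 drives Klf2, and KLF2 drives S1pr1 in mature thymocytes and naive T cells.

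Both replicates 1 were sequenced in one run (run 1) and both replicates 2 in another (run 2), so each run holds 1 library of each genotype. Fragments assigned to genes numbered 14331705 in the shallowest library and 26901913 in the deepest. DN3 transcripts were abundant: the 12 DN3 markers summed to 3540 and 3696 FPKM in libraries labelled Gata3(g/g), against 3201 and 3373 FPKM in the WT libraries (FPKM, fragments scaled by transcript length and by library depth). Cd4 was near the bottom, at 0.473 and 0.406 FPKM in libraries labelled Gata3(g/g) and 0.492 and 0.449 FPKM in WT. Gata3 itself was higher in libraries labelled Gata3(g/g), at 119.9 and 96.1 FPKM against 62.4 and 58.5 FPKM in WT. With the run in the model it rose by 0.83 ± 0.146 on the log2 scale (SE, adjusted p = 0.00165 by edgeR). It did not pass with genotype alone (adjusted p = 0.965 by edgeR) or by limma with the run in the model (adjusted p = 0.128). The level of RNA does not measure the function of an allele, so the label could not be checked from it. Every direction below rests on the labels.

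Cxcr4 and Ccr9 were the most abundant of the 6 receptor genes. Together they made up 97.7% and 98.9% of the summed FPKM of the 6 receptor genes in libraries labelled Gata3(g/g), and 96.8% and 97.9% in WT. Averaged over the 4 libraries, Cxcr4 stood at 46.0 FPKM, above 88.2% of the tested genes, and Ccr9 at 18.3 FPKM, above 70.8%. Outside the 6, the attractant receptor genes Gpr132 (41.6 FPKM), P2ry10 (38.5 FPKM) and Gpr171 (20 FPKM) averaged above Ccr9. Klf2 and Foxo3 both averaged 10.8 FPKM and Foxo1 3.4 FPKM. Ccr7 (0.751 FPKM), Ccr4 (0.271 FPKM), S1pr1 (0.2 FPKM) and Ccr8 (0.0972 FPKM) followed in that order. Cxcr4 lay above Ccr9 in every library, and Foxo3 above Foxo1. The ranges of Ccr4 and S1pr1 overlapped, and the range of Klf2 overlapped those of Ccr9, Foxo3 and Foxo1, so their places in the order do not hold beyond the spread between libraries.

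**Figure D1:**
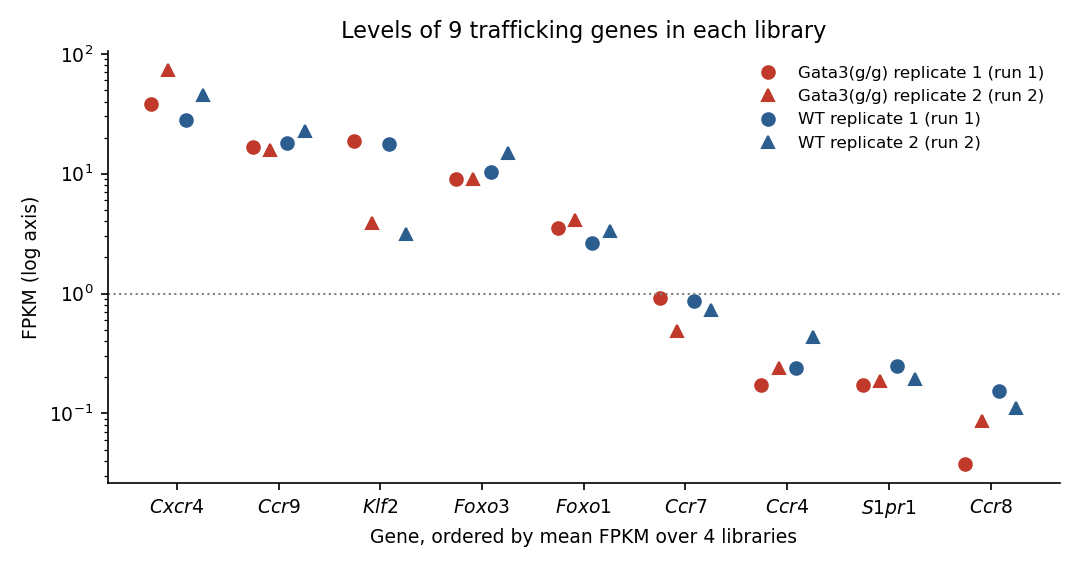
FPKM on a log axis of each trafficking gene in each of the 4 libraries, with Gata3(g/g) in red, WT in blue, circles for run 1 and triangles for run 2. The dotted line marks the mean of 1 FPKM that a gene needed to be tested. Klf2 separates by run (3.89 and 3.15 FPKM in run 2, 18.6 and 17.7 FPKM in run 1), and 4 receptor genes lie below the line.

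The comparison asks how these genes differ between DN3 cells of Gata3(g/g) and WT donors. Genes with a mean of at least 1 FPKM over the 4 libraries were tested, 10224 in all, and 5 of the 9 trafficking genes passed this filter. In the model with genotype alone, 0 of these 5 passed an adjusted p of 0.05 by edgeR's quasi-likelihood test and 0 had an unadjusted p under 0.05. That model called 0 of all tested genes (0%), with 393 at an unadjusted p under 0.05. In the model that also holds the run (the replicate block), 1 of the 5 was called, Cxcr4, which was higher. This model called 6.9% of all tested genes, 3.9% higher and 2.99% lower in Gata3(g/g), and a single call among 5 genes is too few to set them apart from that background. All 5 had the same sign in both runs, as did 64.5% of the tested genes. The FPKM of the genotypes did not overlap for 3 of the 5, against 29% of the tested genes.

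Cxcr4, which encodes the CXCL12 receptor, measured 37.8 and 72.7 FPKM in libraries labelled Gata3(g/g), against 27.8 and 45.5 FPKM in WT. In each run the library labelled Gata3(g/g) was the higher one, but across runs the genotypes overlapped, since Gata3(g/g) replicate 1 lay below WT replicate 2. The group values were 55.2 ± 24.7 FPKM in Gata3(g/g) and 36.7 ± 12.5 FPKM in WT (SD, n = 2 each). With the replicate block the log2 fold change was 0.56 ± 0.125 (SE, adjusted p = 0.0106 by edgeR). Within the runs, the difference of log2 CPM (counts scaled to library size) was 0.46 in run 1 and 0.66 in run 2. With genotype alone the log2 fold change was 0.59 ± 0.412 (SE) and did not pass (adjusted p = 1 by edgeR). With the block, Cxcr4 also passed by DESeq2 (adjusted p = 0.023), which called 4.08% of all tested genes. It did not pass by limma (adjusted p = 0.207), which called 0.156%. In the authors' deposited table its q-value was 0.0343, and 4.1% of the genes tested there had a q-value under 0.05.

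Fragment numbers do not limit this comparison. Cxcr4 had 3289 and 4217 fragments in libraries labelled Gata3(g/g) and 1817 and 2047 in WT. The ratio of Gata3(g/g) to WT counts, scaled to library size, had a 95% interval for counting error of 1.34 to 1.51 in run 1 and of 1.55 to 1.73 in run 2. In RNA from whole sorted samples, fewer cells of a type and less RNA per cell cannot be told apart.

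Markers of DN3 and of other stages and cell types were set beside the Cxcr4 difference. The model with the block called 3.9% of all tested genes higher and 2.99% lower. Of 12 tested DN3 markers, 2 rose with the block, Il2ra (log2 fold change 0.98) and Dtx1 (0.98), and 0 fell. Il2ra measured 569 and 492 FPKM in libraries labelled Gata3(g/g) and 277 and 261 FPKM in WT. The median log2 fold change of the 12 was −0.05 with the block. Of 8 tested markers of double-positive and single-positive thymocytes, 2 rose with the block, Cd8b1 (log2 fold change 1.77) and Cd8a (1.28), and the 11 markers summed to 70.9 and 61.8 FPKM in libraries labelled Gata3(g/g), against 86.2 and 50.8 FPKM in WT. Of 4 tested markers of the preceding ETP and DN2 stages, 1 rose, Cd44 (1.23), and the 8 markers summed to 13.7 and 17.5 FPKM against 10.2 and 13.4 FPKM in WT. Of 3 tested markers of mature T and NK cells, 1 rose, Nkg7 (1.02), and the 12 summed to 382 and 422 FPKM against 251 and 358 FPKM in WT. Nkg7 measured 96.4 and 75.5 FPKM in libraries labelled Gata3(g/g) and 43.4 and 41.1 FPKM in WT. Of 4 tested myeloid and dendritic markers, 1 rose, Lyz2 (1.27), at 18.7 and 13.6 FPKM in libraries labelled Gata3(g/g) and 9.93 and 4.2 FPKM in WT. The 3 others, S100a8 (−0.08), S100a9 (−0.80) and Cd68 (−0.43), lay below 0 and did not pass. The median log2 fold change of the 4 was −0.26 with the block. The 11 found of that list summed to 22.8 and 66.7 FPKM in libraries labelled Gata3(g/g) and 14.5 and 56.2 FPKM in WT. The dendritic gene Itgax, below the limit for testing, measured 0.547 and 0.447 FPKM in libraries labelled Gata3(g/g) and 0.151 and 0.142 FPKM in WT. Of 2 tested B-lineage markers and of 3 tested stromal and endothelial markers, 0 were called. The 9 B-lineage markers summed to 39.5 and 33.8 FPKM in libraries labelled Gata3(g/g) and 31.7 and 31.7 FPKM in WT, most of it Cd79b (37 and 29.6 FPKM in libraries labelled Gata3(g/g), 29.8 and 29.1 FPKM in WT), while Pax5 had at most 1 fragment in any library. The 12 stromal and endothelial markers summed to 36.8 and 35.3 FPKM in libraries labelled Gata3(g/g) and 36.2 and 29.3 FPKM in WT. Most of this was Pecam1, at 25 and 21.7 FPKM in libraries labelled Gata3(g/g) and 19.7 and 16.9 FPKM in WT. Epcam measured 8.41 and 9.69 FPKM in libraries labelled Gata3(g/g) and 12.7 and 7.13 FPKM in WT, while the epithelial gene Foxn1 had at most 7 fragments in any library. The part of any of these stages and cell types in the Cxcr4 difference was not tested.

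The Cxcr4 gene lies on chromosome 1 from 128588199 to 128592299 of mm10, on the minus strand. Its promoter is shown because Cxcr4 was the member called. The windows printed here are RefSeq's, on GRCm38.p6 (the assembly of mm10), and cover 250 bases before the gene's start and 50 after it; 7 of the 9 genes have one. The Cxcr4 window is chr1:128592250-128592549 on the minus strand, with a match to the core of the NRF1 motif in capitals.
Cxcr4: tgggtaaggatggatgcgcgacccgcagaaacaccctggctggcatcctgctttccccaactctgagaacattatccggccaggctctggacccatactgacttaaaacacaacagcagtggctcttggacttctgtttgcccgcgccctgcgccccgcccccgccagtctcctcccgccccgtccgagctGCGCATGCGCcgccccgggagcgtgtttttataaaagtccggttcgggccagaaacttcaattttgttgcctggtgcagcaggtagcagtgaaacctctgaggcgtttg
The match starts 59 bases before the gene's start. The core (NRF1 is a factor of housekeeping promoters) was picked after the window had been read, and it occurs in 2.27% of the 32851 promoter windows, and the TATA word TATAAA, which lies 30 bases before the start of Cxcr4, in 13.6% (both strands searched). GATA words, taken as GATA with A or T before it and A or G after it, occur in 29.8% of windows and have no match in this one. The last base of the NRF1 match is also the first of a GC box word (GGGCGG, in 35.7% of windows) on the other strand.

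Ccr9, which encodes the CCL25 receptor, measured 16.8 and 15.9 FPKM in libraries labelled Gata3(g/g) and 17.9 and 22.5 FPKM in WT. The genotypes did not overlap, with both libraries labelled Gata3(g/g) below both WT libraries, but the gap was narrow in run 1. The log2 fold change was −0.29 ± 0.133 (SE) with the block and did not pass (adjusted p = 0.222 by edgeR). In run 1 the log2 CPM difference was −0.08 and in run 2 −0.50. WT replicate 2 was the highest library. In run 1 the 95% interval of the count ratio for counting error, 0.932 to 1.03, included 1, and in run 2 it ran from 0.69 to 0.772. In the authors' deposited table the Ccr9 q-value was 0.293.

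Because Cxcr4 was higher and Ccr9 lower, their ratio in FPKM was 2.25 and 4.56 in libraries labelled Gata3(g/g) and 1.55 and 2.02 in WT. Both libraries labelled Gata3(g/g) lay above both WT libraries, and the ratio itself was not tested. Ccr9 lies on chromosome 9 from 123767211 to 123783457 of mm10, on the plus strand, and GENCODE M21 places another gene, AC165425.1, on the opposite strand within its span. No source used here says whether counting used the strand. Its window, chr9:123766961-123767260 on the plus strand, is shown because it holds a GATA word (TGATAG, in capitals), which starts 114 bases before the gene's start.
Ccr9: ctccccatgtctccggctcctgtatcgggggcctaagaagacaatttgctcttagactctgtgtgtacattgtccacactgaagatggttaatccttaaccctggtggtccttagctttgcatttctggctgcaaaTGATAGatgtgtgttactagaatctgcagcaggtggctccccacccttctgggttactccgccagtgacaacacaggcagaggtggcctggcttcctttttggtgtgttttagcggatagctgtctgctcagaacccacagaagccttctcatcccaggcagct
Among the 7 windows, those of Ccr9, Ccr8 and Klf2 hold a GATA word, 1 match each. Such a word is a match of letters, and binding was not measured.

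The receptors of later stages were barely represented. Ccr7, the receptor of CCL19 and CCL21 that draws selected thymocytes to the medulla, measured 0.922 and 0.486 FPKM in libraries labelled Gata3(g/g), from 88 and 31 fragments, and 0.865 and 0.728 FPKM in WT, from 62 and 36 fragments. The genotypes overlapped and the direction differed between the runs, with a log2 CPM difference of 0.11 in run 1 and −0.57 in run 2. Ccr4, the receptor of CCL17 and CCL22, measured 0.174 and 0.238 FPKM in libraries labelled Gata3(g/g) and 0.241 and 0.432 FPKM in WT, from 22 to 31 fragments. Its genotypes did not overlap, although Gata3(g/g) replicate 2 and WT replicate 1 were nearly level. S1pr1, the exit receptor, measured 0.172 and 0.188 FPKM in libraries labelled Gata3(g/g) and 0.247 and 0.192 FPKM in WT, from 15 to 28 fragments. The 2 libraries of run 2 were nearly level for S1pr1, at 19 fragments in Gata3(g/g) and 15 in WT. Ccr8, the receptor of CCL1, had 2 and 3 fragments in libraries labelled Gata3(g/g) and 6 and 3 in WT, around the 3 fragments taken here as the limit that a count of 0 allows.

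None of these 4 genes reached the mean of 1 FPKM needed for testing. The 95% intervals of the Gata3(g/g) to WT count ratio, for counting error alone, included 1 in both runs for each of them. For Ccr7 they ran from 0.798 to 1.57 in run 1 and from 0.409 to 1.14 in run 2, and for Ccr4 from 0.413 to 1.38 and from 0.311 to 1.01. For S1pr1 they ran from 0.411 to 1.29 and from 0.485 to 2.13, and for Ccr8 from 0.0259 to 1.47 and from 0.106 to 5.93. No difference between the genotypes was thus detected in these counts. Fitted with all genes that had at least 1 fragment and with the block, none of the 4 passed, and the smallest of their adjusted p-values was 0.978 by edgeR. Ccr4 and Ccr8 lie on chromosome 9 (114490316 to 114496544 and 120092133 to 120094906), Ccr7 on chromosome 11 (99144199 to 99155077) and S1pr1 on chromosome 3 (115710433 to 115715055) of mm10.

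**Figure D2:**
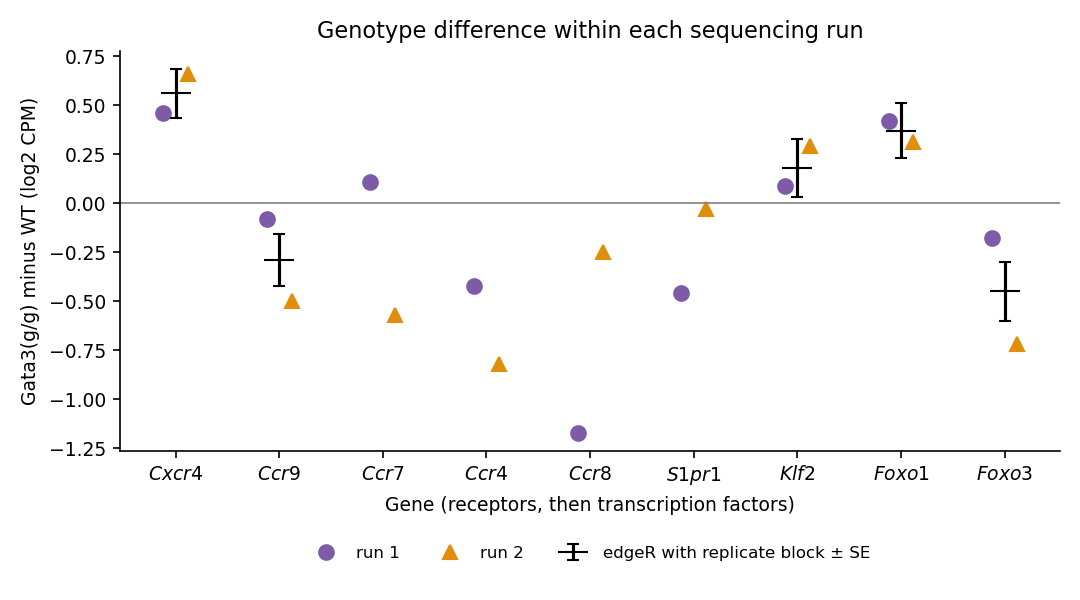
Difference between the library labelled Gata3(g/g) and the WT library of the same run in log2 CPM, with circles for run 1 and triangles for run 2, and the edgeR log2 fold change with the replicate block ± SE for the 5 tested genes. Cxcr4 was above 0 in both runs (0.46 and 0.66), whereas Ccr7 changed sign between them (0.11 and −0.57).

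Klf2, which encodes the zinc-finger factor of T cell quiescence and exit, measured 18.6 and 3.89 FPKM in libraries labelled Gata3(g/g), against 17.7 and 3.15 FPKM in WT. The spread between the libraries of 1 genotype was far wider than the gap between the genotypes, and the genotypes overlapped. The group values were 11.2 ± 10.4 FPKM in Gata3(g/g) and 10.4 ± 10.3 FPKM in WT (SD, n = 2 each). With the block the log2 fold change was 0.18 ± 0.149 (SE, adjusted p = 0.547 by edgeR), and 2 SE on either side span −0.12 to 0.48. The within-run difference of log2 CPM was 0.09 in run 1 and 0.29 in run 2. With genotype alone and 1 library left out, the direction turned, to −1.41 without Gata3(g/g) replicate 1 and −0.63 without WT replicate 2, because the runs are then unequally shared.

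What set the level of Klf2 apart in these libraries was the run. It was lower in run 2, at 3.89 FPKM in Gata3(g/g) and 3.15 FPKM in WT, against 18.6 FPKM in Gata3(g/g) and 17.7 FPKM in WT in run 1. The log2 CPM difference, run 2 minus run 1, was −2.25 in Gata3(g/g) and −2.45 in WT. The run term of the model was −2.35 ± 0.154 on the log2 scale (SE, adjusted p = 1.56e-08 by edgeR). This term was examined after the values had been seen, and it called 34.8% of all tested genes, 17.5% higher and 17.3% lower in run 2. A mean run difference as low as that of Klf2 or lower was found for 0.313% of the tested genes. What differed between the runs besides the sequencing is not given in the labels.

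Cxcr4 differed between the runs in the opposite direction. It stood at 72.7 and 45.5 FPKM in run 2 (Gata3(g/g), WT) and at 37.8 and 27.8 FPKM in run 1, and its run term was 0.84 ± 0.125 on the log2 scale (SE, adjusted p = 0.000103 by edgeR). A mean run difference at least as high was found for 5.91% of the tested genes. The difference between runs was thus larger than the genotype difference for both genes. Ccr9 (0.15), Foxo1 (0.31) and Foxo3 (0.28) had run terms that did not pass (adjusted p from 0.0968 to 0.405 by edgeR). The ratio of Klf2 to Cxcr4 in FPKM was 0.0535 and 0.0693 in run 2 (Gata3(g/g), WT), against 0.491 and 0.634 in run 1.

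Several other Klf genes shared the run difference, and none of the family was called between genotypes. Of 16 Klf genes beside Klf2, 8 were tested, and 0 rose and 0 fell in Gata3(g/g) with the block. Between runs, 4 were lower and 1 higher in run 2, against 17.3% and 17.5% of all tested genes. Klf4 stood at 0.275 and 0.292 FPKM in run 2 (Gata3(g/g), WT), against 10 and 16.7 FPKM in run 1. Klf6 stood at 10.8 and 9.53 FPKM in run 2 (Gata3(g/g), WT), against 60.2 and 49.8 FPKM in run 1. Klf11 (−1.38) and Klf10 (−0.60) were lower as well, whereas Klf3 was higher (0.50), these being run terms on the log2 scale. Among the 10223 other tested genes, Klf6 had the profile over the 4 libraries closest to that of Klf2, with a distance of 0.171 between the log2 CPM values after each gene's mean was subtracted. 2310037I24Rik (0.215) and Pgap2 (0.252) came next.

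Immediate-early genes, which respond within minutes to signals and to handling of cells, moved with Klf2 between the runs. Of 12 tested, 11 were lower in run 2 and 0 higher, against 17.3% and 17.5% of all tested genes. The median run term was −2.15 on the log2 scale, against −0.01 over all tested genes. The 15 genes of the list summed to 97.3 and 94.6 FPKM in run 2 (Gata3(g/g), WT), against 578 and 808 FPKM in run 1. Fos stood at 2.22 and 1.21 FPKM in run 2 (Gata3(g/g), WT) and at 152 and 224 FPKM in run 1. Cd69, whose product holds S1PR1 inside the cell, followed the same pattern at 2.9 and 3.38 FPKM in run 2 (Gata3(g/g), WT) and 18.4 and 31.3 FPKM in run 1. Erythroid markers moved the other way, with 7 of 7 tested genes higher in run 2, against 17.5% of all tested genes. The 8 markers summed to 590.4 and 463 FPKM in run 2 (Gata3(g/g), WT), against 2.45 and 1.67 FPKM in run 1. The part of cell handling or of other cells in the Klf2 and Cxcr4 run differences was not tested.

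**Figure D3:**
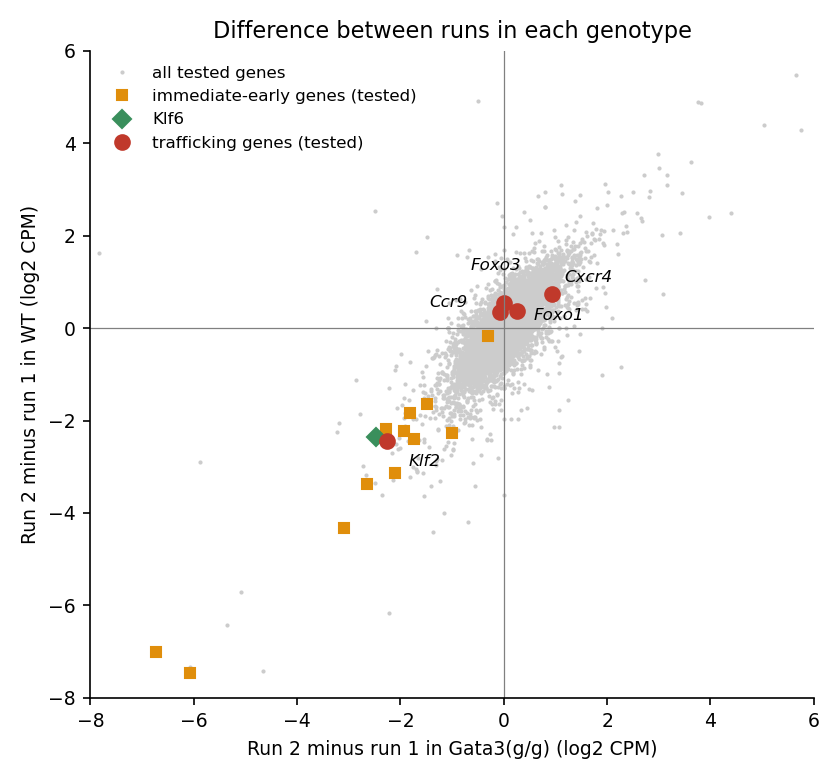
Difference between run 2 and run 1 in log2 CPM, in Gata3(g/g) on the horizontal axis and in WT on the vertical axis, for all tested genes in grey, tested immediate-early genes as squares, Klf6 as a diamond and the 5 tested trafficking genes as red circles. Klf2 lies at −2.25 and −2.45 among the immediate-early genes, and Cxcr4 at 0.94 and 0.73 on the opposite side; 13 tested genes lie outside the axes.

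S1pr1, which KLF2 is known to drive, stood at 0.188 and 0.192 FPKM in run 2 (Gata3(g/g), WT) and at 0.172 and 0.247 FPKM in run 1. The S1pr1 counts are too few to show a difference of moderate size.

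The Klf2 gene lies on chromosome 8 from 72319062 to 72321654 of mm10, on the plus strand. Its window, chr8:72318812-72319111 on the plus strand, is shown because Klf2 had the run term farthest from 0 on the log2 scale among the 5 tested trafficking genes. The capitals mark a match to the MEF2 motif, and the Klf2 promoter is known as a target of MEF2 factors.
Klf2: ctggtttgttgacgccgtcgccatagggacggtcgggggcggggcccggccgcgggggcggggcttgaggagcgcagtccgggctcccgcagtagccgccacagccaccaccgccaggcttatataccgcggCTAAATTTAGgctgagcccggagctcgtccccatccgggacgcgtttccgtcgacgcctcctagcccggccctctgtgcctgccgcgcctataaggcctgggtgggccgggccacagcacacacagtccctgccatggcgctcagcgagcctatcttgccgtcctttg
The match starts 118 bases before the gene's start. The motif was also picked after the window had been read, and it occurs in 3.19% of the windows. The FOXO word GTAAACA, which occurs in 3.65% of windows, had no match on either strand in any of the 7 windows.

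Foxo1, which encodes the FOXO factor upstream of Klf2 and Il7r in lymphocytes, measured 3.50 and 4.14 FPKM in libraries labelled Gata3(g/g) and 2.64 and 3.33 FPKM in WT. The genotypes did not overlap, and the library labelled Gata3(g/g) was higher in each run, by 0.42 in run 1 and 0.31 in run 2 on the log2 CPM scale. The log2 fold change with the block was 0.37 ± 0.141 (SE) and did not pass (adjusted p = 0.14 by edgeR). Foxo1 lies on chromosome 3 from 52268337 to 52350109 of mm10. In GENCODE M21 the antisense gene Gm20402 and, on the same strand as Foxo1, the gene Gm38034 overlap its span.

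Foxo3, which encodes the related factor FOXO3, differed in the other direction. It measured 9.03 and 9.04 FPKM in libraries labelled Gata3(g/g) and 10.3 and 14.8 FPKM in WT. The libraries labelled Gata3(g/g) were level and both WT libraries lay above them, with WT replicate 2 well above WT replicate 1. The log2 fold change with the block was −0.45 ± 0.152 (SE) and did not pass (adjusted p = 0.0919 by edgeR), with −0.18 in run 1 and −0.72 in run 2. Its unadjusted p with the block was 0.00927 by edgeR, and in the authors' deposited table its q-value was 0.107. Foxo3 lies on chromosome 10 from 42185786 to 42276742 of mm10.

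The ratio of Foxo3 to Foxo1 in FPKM was 2.58 and 2.18 in libraries labelled Gata3(g/g) and 3.91 and 4.44 in WT. Both libraries labelled Gata3(g/g) lay below both WT libraries, and the ratio itself was not tested. Foxo4, the third FOXO gene at appreciable levels, measured 5.27 and 6.22 FPKM in libraries labelled Gata3(g/g) and 5.31 and 7.02 FPKM in WT, and did not pass with the block (log2 fold change −0.09, adjusted p = 0.78 by edgeR).

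Other genes had profiles over the 4 libraries nearly the same as those of the remaining trafficking genes. The nearest to Cxcr4 was Igf2r, at a distance of 0.023 on the centred log2 CPM scale, with 4.35 and 8.26 FPKM in libraries labelled Gata3(g/g) and 3.2 and 5.29 FPKM in WT. Gpr133 (0.092) and Dst (0.108) followed. Nans was nearest to Ccr9 (0.018), P2ry14 to Foxo1 (0.023) and Mrto4 to Foxo3 (0.025). With 4 libraries and 10223 genes compared, such closeness is a description only.

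Genes related to the trafficking receptors and to KLF2 and FOXO1 were counted in 9 lists, with 123 genes tested in all. With the block 16 rose, 2 fell and 105 did not pass, against 3.9% of all tested genes that rose and 2.99% that fell. The model with genotype alone called 0, and so did limma with the block, which called 0.156% of all tested genes. The median log2 fold change of the 123 was 0.10 with the block, against 0.01 over all tested genes. These lists were chosen with earlier results of these data known, so their counts carry no independent weight.

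Of 27 other attractant receptor genes, 7 were tested, of which 3 rose and 0 fell with the block, against 3.9% of all tested genes that rose. Gpr183, which encodes the oxysterol receptor EBI2, measured 5.14 and 6.75 FPKM in libraries labelled Gata3(g/g) and 0.992 and 3.03 FPKM in WT (log2 fold change 1.74 ± 0.236, SE). Gpr18 measured 7.18 and 8.33 FPKM against 2.40 and 1.44 FPKM in WT (2.01 ± 0.266, SE), and Gpr171 24.6 and 24.3 FPKM against 17.4 and 13.7 FPKM (0.67 ± 0.138, SE). For all 3 genes both libraries labelled Gata3(g/g) lay above both WT libraries. Gpr132 (0.04), the lysophosphatidylserine receptor gene P2ry10 (0.38) and the prostaglandin E receptor gene Ptger4 (0.18) did not pass.

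Of 6 tested genes of S1P receptors and S1P metabolism, 1 rose and 0 fell with the block, against 3.9% and 2.99% of all tested genes. A single call among 6 genes is too few to set them apart from that background. The gene called was Sgpl1, which encodes the lyase that degrades S1P, at 4.42 and 4.58 FPKM in libraries labelled Gata3(g/g) and 3.31 and 2.59 FPKM in WT (log2 fold change 0.62 ± 0.159, SE). With the block Cd69 missed the threshold (adjusted p = 0.0504 by edgeR), at −0.54 ± 0.16 on the log2 scale (SE). The S1P receptor genes S1pr4 (0.07) and S1pr2 (0.03) did not pass, and both stood above S1pr1 in every library. S1pr4 measured 4.74 and 5.74 FPKM in libraries labelled Gata3(g/g) and 3.62 and 6.82 FPKM in WT.

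Of 12 tested homing adhesion genes, 2 rose and 0 fell with the block, against 3.9% and 2.99% of all tested genes. Itgb2, which encodes the beta chain shared by LFA-1 and its relatives, measured 9.48 and 7.78 FPKM in libraries labelled Gata3(g/g) and 4.97 and 3.74 FPKM in WT (log2 fold change 1.0 ± 0.145, SE). Cd44 was the other (1.23 ± 0.197, SE). The selectin ligand gene Selplg (−0.05) and the integrin gene Itga4 (0.40) did not pass. Of 32 tested genes of chemoattractant receptor signalling, from G proteins to Rac and Rap GTPases, 1 rose and 0 fell, near the background. It was Rap1b (0.54 ± 0.132, SE), a small GTPase that activates integrins, and the abundant genes Coro1a (0.15), Gnai2 (0.10) and Rac2 (−0.12) did not pass.

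Of 6 tested genes of RGS proteins, which shorten signals of G protein-coupled receptors, Rgs18 rose and Rgs2 fell with the block. These are 1 call in each direction, too few to set the 6 genes apart from all tested genes. Rgs18 measured 5.23 and 4.26 FPKM in libraries labelled Gata3(g/g) and 1.83 and 1.38 FPKM in WT (log2 fold change 1.57 ± 0.238, SE). Rgs2 measured 15.3 and 5.25 FPKM against 31.9 and 5.89 FPKM in WT (−0.64 ± 0.174, SE). The Rgs2 difference was −1.04 in run 1 and −0.17 in run 2, and Rgs2 was also lower in run 2 (run term −1.97 on the log2 scale). Of the 12 tested immediate-early genes, 1 rose (Jun) and 5 fell (Fosb, Junb, Jund, Egr1 and Nr4a1) in Gata3(g/g) with the block. Of all tested genes, 3.9% rose and 2.99% fell. The model with genotype alone called 0 of the 12. By limma with the block, the smallest adjusted p among the genes named was 0.11 (Nr4a1). The part of immediate-early genes in the Rgs2 and Cd69 differences was not tested.

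Of 25 tested genes of the FOXO family and its PI3K and AKT inputs, 5 rose and 0 fell with the block, against 3.9% and 2.99% of all tested genes. Sgk3, a kinase gene related to AKT, measured 22.3 and 16.3 FPKM in libraries labelled Gata3(g/g) and 12.2 and 8.83 FPKM in WT (log2 fold change 0.88 ± 0.122, SE). Phlpp1, a phosphatase gene acting on AKT (0.85), Pik3r1 (0.56) and Pik3cd (0.48), which encode a regulatory and a catalytic PI3K subunit, were among the others that rose. Of these, PHLPP1 opposes AKT, and the PI3K subunits act upstream of it. Ywhae (−0.12), Ywhaz (−0.02) and Akt1 (−0.07) did not pass.

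Of 26 tested FOXO target genes, 3 rose and 1 fell with the block, against 3.9% and 2.99% of all tested genes. Il7r (0.70 ± 0.123, SE), Ccnd3 (0.83 ± 0.138, SE) and Txnip (0.84 ± 0.125, SE) rose, and Bbc3, a death gene of the BCL-2 family, fell (−1.26 ± 0.332, SE). Txnip measured 66.8 and 28.9 FPKM in libraries labelled Gata3(g/g) and 34.6 and 17.5 FPKM in WT, and it was lower in run 2 (run term −1.08 on the log2 scale). Tcf7 (−0.25) and Rag1 (−0.40) did not pass. The median log2 fold change of the 26 was 0.21 with the block, against 0.01 over all tested genes.

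**Figure D4:**
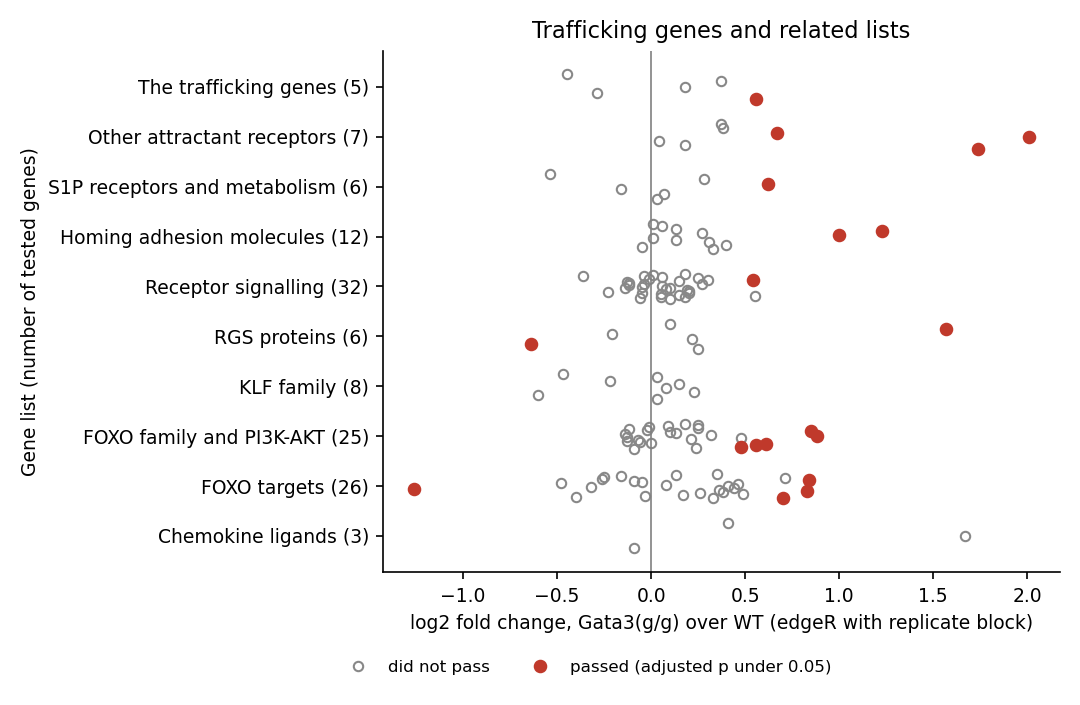
Log2 fold change of Gata3(g/g) over WT by edgeR with the replicate block, for the 5 tested trafficking genes and the tested genes of the 9 related lists, 1 point per gene, with filled red points for genes that passed an adjusted p of 0.05. Most passing genes lie above 0, and the exceptions are Rgs2 (−0.64) and Bbc3 (−1.26).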

How the data were processed

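RNA of 4 sorted DN3 samples was sequenced, and 2 tables were deposited. The submitters' processing notes name mm10, Cuffdiff 2.1.1, TopHat2 2.0.8b and Bowtie2 2.1.0; annotation and strand setting were not given in sources used here. Per the file headers, the authors deposited an estimated count of fragments before scaling and an FPKM value for each gene and library. Their comparison table, per the file headers, gives q-values, p-values and log2 fold changes by gene.

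Of the estimated counts, 97.7% to 98.9% were whole to within 0.01, and rounding was applied to all. The 3 genes flagged HIDATA (excess depth) were dropped. Counts were tested with edgeR 4.0.16 (R 4.3.3, quasi-likelihood F test, TMM factors 0.983 to 1.02, Benjamini-Hochberg adjustment over 10224 genes at 0.05), with genotype alone (2 residual degrees of freedom) and with the replicate number as a block (1). The number marks the sequencing run in the labels, and the run difference in Gata3(g/g) and in WT correlated across genes at 0.754. DESeq2 1.42.0 and limma 3.58.1 on log2(FPKM + 1) were alternatives. The SE is the absolute unshrunken log2 fold change over the square root of F. Log2 CPM used a prior count of 2. The scripts were tested on simulated data.

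The trafficking genes and lists were chosen with earlier results of these data known. Named genes are the trafficking genes, the genes of each list called with the block, up to 3 others of highest mean FPKM, and the 3 nearest profiles. S1pr4, S1pr2, Foxo4, Klf4, Klf10, Klf11, Cd4, Cd79b, Itgax, Epcam, Pax5 and Foxn1 were added after their values were seen. Some genes of the lists are counted but not reported by name here. Counting intervals are exact, at 95%, and cover counting error only; 3 fragments equal 0.112 to 0.209 CPM.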

Additional observations from a re-analysis of the deposited data

How the results depend on the processing

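Against 0 genes called with genotype alone, the replicate block called 705, DESeq2 88 without and 417 with the block, and limma 5 without and 16 with it. Limma with a pseudocount of 0.1 called 4. With no filter 58 were called without and 988 with the block. With the block, a mean FPKM of at least 5 gave 348, and total fragments as the scale gave 674 (464 higher and 210 lower, against 399 and 306). Leaving out each library in turn gave 1 to 11. Of the 9 trafficking genes, 0 were called in any of these fits without the block, and 1, Cxcr4, in the edgeR and DESeq2 fits with the replicate block, at a log2 fold change of 0.56 (also by DESeq2 and with no filter), 0.61 (total fragments) and 0.58 (mean FPKM of at least 5). Limma with the block did not call it. Leaving out each library, with genotype alone, moved Cxcr4 between 0.05 (without Gata3(g/g) replicate 2) and 1.01 (without WT replicate 2), Ccr9 between −0.48 and −0.11, Foxo1 between 0.17 and 0.55, Foxo3 between −0.74 and −0.18, and Klf2 between −1.41 and 1.81, with both signs. In the related lists 18 genes were called with the block, 0 by limma with or without the block, 3 by DESeq2, 14 by DESeq2 with the block, 1 with no filter and 24 with no filter and the block, 19 by total fragments with the block and 10 above the higher FPKM limit with it. The run term called 3560 genes by edgeR, 2263 by DESeq2 and 1040 by limma, tools added after the data were seen, and Klf2 and Cxcr4 passed by each.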

Other observations

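Most attractant receptors outside the 9 genes were scarce in these DN3 cells: 20 of 27 had a mean below 1 FPKM. Cxcr2 (0.825 and 0.551 FPKM in libraries labelled Gata3(g/g), 0.949 and 0.966 FPKM in WT) and Cxcr5 (0.612 and 0.844 against 0.495 and 0.657 FPKM in WT) were among them. Of 14 chemokine and ligand genes, 4 had no fragment in any library, among them Ccl19 and Ccl21a, whose products bind CCR7. Ccl25, whose product binds CCR9, was measured at 2.22 and 3.81 FPKM in libraries labelled Gata3(g/g) and 2.08 and 4.56 FPKM in WT. Cxcl12 had 16 and 29 fragments in libraries labelled Gata3(g/g) and 5 and 26 in WT. These genes were picked from the lists after their values were seen.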
